A study of Homo sapiens with 9 samples.

Results

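The 45 genes described here act in mitosis and the spindle checkpoint: they encode the kinases and cyclins that start cell division, the kinetochore and spindle proteins that move chromosomes, the proteins that delay and then release chromosome separation, those that divide the cell body, and the transcription factors of the programme. They were chosen by name, as the rows of the deposited gene table that carry their symbols, and all 45 were found among 62666 genes, 1 row each. All 45 also passed the filter on low counts that left 17910 genes in the test. Polyadenylated RNA was sequenced from 3 established human breast epithelial lines, in 3 libraries per line: MCF10A, MCF10AT1 and MCF10Ca1a. The study compared the lines as steps of breast cancer progression.

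MCF10A is an immortal, non-tumour line, MCF10AT1 descends from MCF10A cells that carry an introduced, activated HRAS gene, and MCF10Ca1a descends from a xenograft of that lineage and forms carcinomas in mice. Each step of the series is a single cell line, so a difference between steps is a difference between lines. All 3 were grown in the same mixture of DMEM and F12 with NaHCO3, insulin, L-glutamine, human epidermal growth factor, hydrocortisone and cholera toxin. MCF10A and MCF10Ca1a received 5% horse serum and MCF10AT1 received 2.5%, so serum and line cannot be told apart in the comparisons that include MCF10AT1. The labels do not say how confluent the cultures were, a condition on which the level of mitosis genes depends, and its part in the differences was not tested. Nor do they say that the 3 libraries of a line came from separate cultures, and p-values then measure only the spread between these libraries. Library totals ran from 62.9 to 69.5 M estimated reads in MCF10A and MCF10AT1 and from 32.9 to 35.2 M in MCF10Ca1a. The lowest count of any of the 45 genes in any library was 187 reads. HRAS itself, which marks the lineage, averaged 41.0 ± 1.95 CPM (counts-per-million of TMM-scaled totals, SD over 3 libraries) in MCF10A, 97.6 ± 2.94 in MCF10AT1 and 145 ± 3.59 in MCF10Ca1a.

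Of 10 epithelial marker genes, KRT5, KRT7, KRT8, KRT17, KRT18, EPCAM, CDH1 and TP63 averaged at least 16.2 TPM (transcripts-per-million, a length-corrected level) in every line. KRT19 averaged 0.0566, 0.256 and 7.32 TPM and KRT14 averaged 205, 38.8 and 4.78 TPM in MCF10A, MCF10AT1 and MCF10Ca1a. CD3E was listed at 0 in all lines, and PTPRC, COL1A2, COL3A1, PDGFRA, PDGFRB, VWF and CDH5 averaged at most 0.0577 TPM. COL1A1 averaged 3.06, 0.961 and 1.79 TPM and KDR 0.145, 0.0827 and 0.0023 TPM in the order of the lines. PECAM1 averaged 0.626, 1.01 and 18.7 TPM and CD68 averaged 10.8, 2.66 and 31.1 TPM in the same order, while CD14 averaged 8.62, 3.68 and 0.205 TPM. The part of these 3 genes in the results was not tested.

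A dividing cell enters mitosis when cyclin B bound to CDK1 becomes active, and Polo and Aurora kinases then help to build the spindle. The spindle checkpoint holds the anaphase-promoting complex (APC/C) inactive until all kinetochores have attached to microtubules, after which the complex marks securin and cyclin B for destruction and separase releases the sister chromatids. Most of these genes are transcribed in waves that peak in G2 and M phase, under MYB-MuvB and FOXM1, through promoter elements called the cell cycle homology region and the CCAAT box. In bulk RNA, fewer dividing cells and less RNA per dividing cell cannot be told apart.

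Promoter sequence was read for the motifs of that programme. RefSeq promoters (GRCh38.p14, 250 bases before to 50 after a start) were matched by symbol for 39 of the 45 genes, with 51 promoters in all, and AURKA, BIRC5, TTK, UBE2C, TPX2 and FOXM1 were not in that table. The core of the cell cycle homology region was searched on both strands as TTTGAA or TTCGAA, and no other form of it was searched. The CCAAT box was searched in the same way, as the letters CCAAT. The form TTCGAA reads the same on both strands, and matches of the 2 motifs can share at most 1 base. TTTGAA or TTCGAA stood in 34 of the 51 promoters (66.7%), against 16.4% of all 35116 promoters of the same length. CCAAT stood in 37 (72.5%), against 34.6% of all promoters, and 28 (54.9%) held both motifs, against 6.38%. Among promoters of S-phase genes the share with CCAAT was 69.2%, close to that of the mitosis genes, while the share with TTTGAA or TTCGAA was 5.13%. A match of letters is a description and not a bound site.

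The 120 bases before the start are shown for the 4 genes that fell most in MCF10Ca1a among those with both motifs in a promoter, with matches in capitals on either strand (ATTGG is CCAAT and TTCAAA is TTTGAA read on the opposite strand). They lie at chr1:214603075-214603194 for CENPF, chr16:23678769-23678888 for PLK1, chr12:53268179-53268298 for ESPL1 and chr10:92593010-92593129 for KIF11, all on the plus strand of GRCh38.p14. MYBL2 (chr20:43666994-43667113, plus strand) was added after its values were seen, because it fell most at the first step and holds no match.
CENPF: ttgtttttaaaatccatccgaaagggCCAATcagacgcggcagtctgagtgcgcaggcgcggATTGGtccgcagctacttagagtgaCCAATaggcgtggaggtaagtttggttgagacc
PLK1: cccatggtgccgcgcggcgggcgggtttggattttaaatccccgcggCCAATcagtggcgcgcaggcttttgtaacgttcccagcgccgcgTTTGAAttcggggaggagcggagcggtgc
ESPL1: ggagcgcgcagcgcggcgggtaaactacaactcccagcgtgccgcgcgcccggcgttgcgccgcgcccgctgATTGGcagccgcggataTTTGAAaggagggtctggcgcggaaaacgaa
KIF11: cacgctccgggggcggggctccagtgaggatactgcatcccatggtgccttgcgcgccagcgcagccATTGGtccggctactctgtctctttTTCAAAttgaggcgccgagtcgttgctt
MYBL2: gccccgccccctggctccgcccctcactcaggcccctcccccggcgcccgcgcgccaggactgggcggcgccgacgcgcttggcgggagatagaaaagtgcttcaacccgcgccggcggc
In PLK1, ESPL1 and KIF11 a TTTGAA match starts 29, 31 and 28 bases before the start, with a CCAAT match further upstream at 73, 48 and 53 bases. CENPF has 3 CCAAT matches in the stretch shown, and its TTTGAA match lies 40 bases after the start. Upstream of the starts of all matched genes, CCAAT matches stood at a median of 85.5 bases and TTTGAA or TTCGAA matches at a median of 30.0 bases. Matches were taken from each promoter, so a site within overlapping promoters of a gene was counted more than once. The 31 genes with TTTGAA or TTCGAA had a median log2 change of -2.31 in MCF10Ca1a against MCF10A and the 8 without it had -2.60. CENPE, KIF2C and MYBL2 held neither motif in this window.

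The mitosis genes took a smaller share of each library's counts at each step of the series. In MCF10A the 45 genes together held 0.916% ± 0.0101 of all counts (SD, n = 3), in MCF10AT1 0.694% ± 0.00817 and in MCF10Ca1a 0.199% ± 0.00143. On the TPM scale, which corrects for length, their sum was 7088 ± 51.5 in MCF10A, 6067 ± 64.1 in MCF10AT1 and 1730.4 ± 14.3 in MCF10Ca1a. The ranges of the 3 lines did not overlap on either scale. The median gene of the set stood at 191 to 194 CPM in the MCF10A libraries, at 135 to 150.3 CPM in MCF10AT1 and at 30.1 to 32.0 CPM in MCF10Ca1a.

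**Figure D1:**
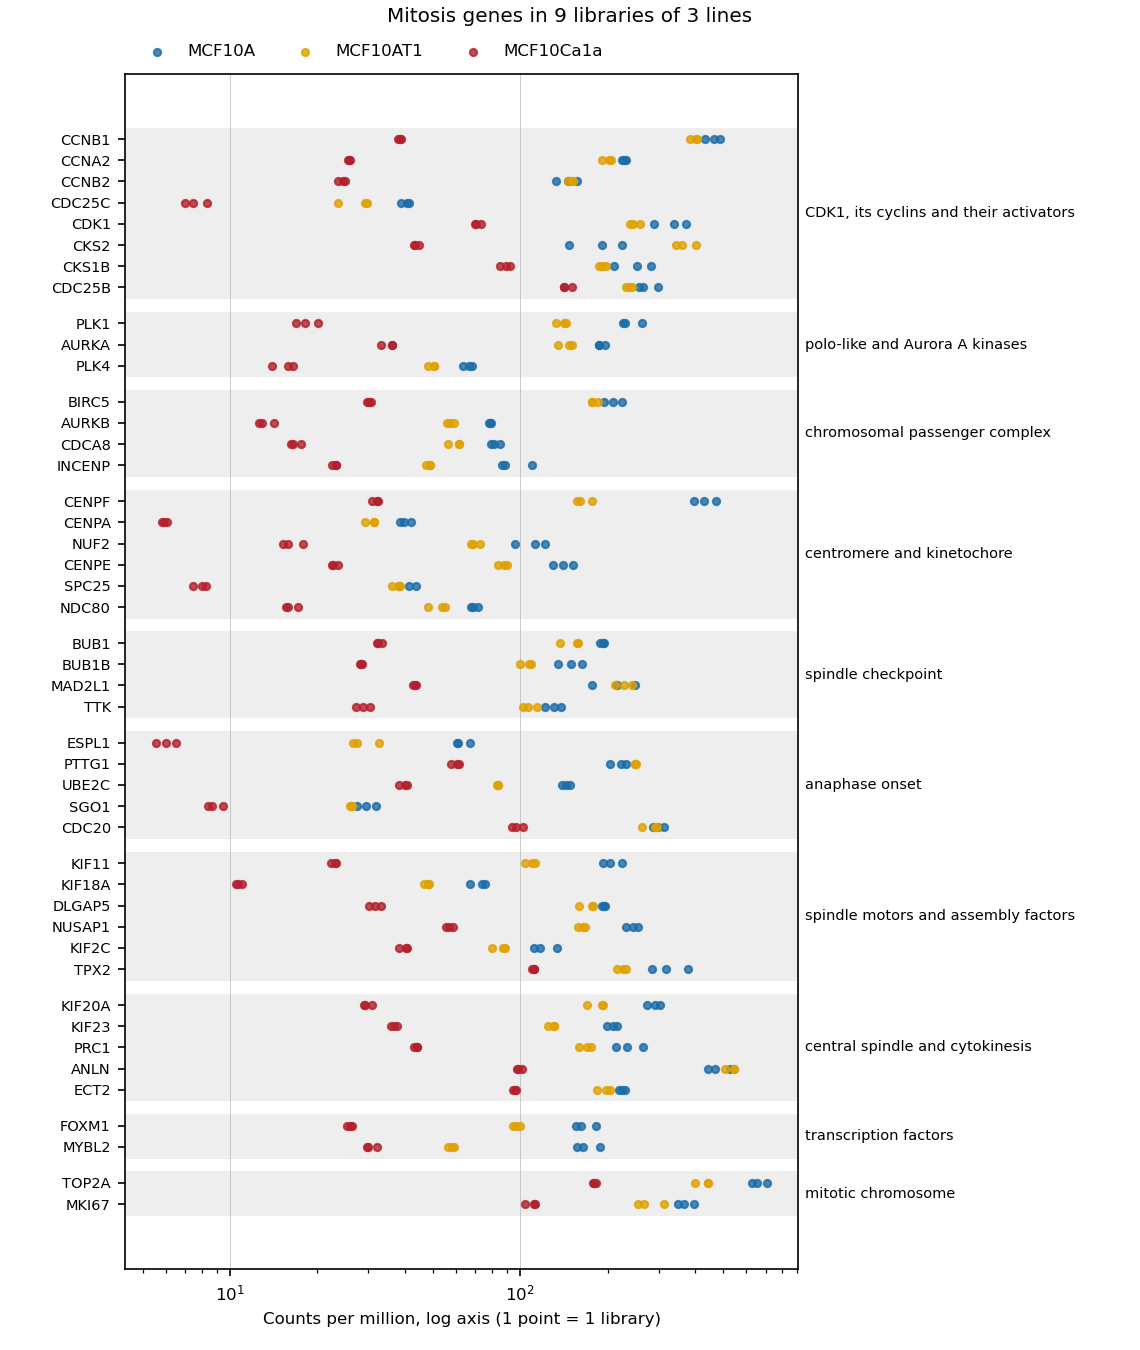
Counts-per-million (CPM) on a log axis for each of the 45 mitosis genes, 1 point per library, in 3 MCF10A, 3 MCF10AT1 and 3 MCF10Ca1a libraries, with genes grouped by role. In all 45 genes the MCF10Ca1a points lie to the left of every point of the other lines, and CKS2 is the gene whose MCF10AT1 points lie furthest to the right of MCF10A.

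Between MCF10A and MCF10AT1, 38 of the 45 genes fell, 2 rose (CKS2 and PTTG1) and 5 did not pass the test (CCNB2, SPC25, MAD2L1, CDC20 and ANLN), by edgeR's quasi-likelihood test at an adjusted p under 0.05. Of all 17910 genes tested, 61.6% changed in the same comparison, with 31.8% lower and 29.8% higher. The median log2 change of the 45 genes was -0.43, against -0.0038 over all genes tested, and 3 genes (MYBL2, CENPF and ESPL1) fell by at least 2-fold, a size reached by 8.64% of all genes. The CPM ranges of the 2 lines were separate for the 40 genes that changed, 38 lower and 2 higher, and overlapped for the 5 that did not pass. Over all genes tested such ranges were separate with MCF10AT1 lower in 34% and higher in 31.4%.

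From MCF10AT1 to MCF10Ca1a all 45 genes fell, where 78.4% of all genes tested changed and 40.3% were lower. Their median log2 change was -1.93 (all genes: -0.044), and 43 fell by at least 2-fold and 21 by at least 4-fold, against 19.5% and 7.96% of all genes. CDC25B and MYBL2 fell by less than 2-fold at this step. The CPM ranges of the 2 lines were separate for all 45, with MCF10Ca1a lower, as they were for 42.3% of all genes tested, and against MCF10A that share was also 42.3%.

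Over the whole series, MCF10Ca1a against MCF10A, all 45 genes fell as well (80.9% of all genes tested changed and 41.9% were lower), with a median log2 change of -2.39 against -0.046 over all genes. The changes ran from -3.77 for CENPF to -0.92 for CDC25B, with standard errors of 0.051 to 0.122, and 44 genes fell by at least 2-fold and 34 by at least 4-fold (background 21.7% and 10.3%). These 3 comparisons share libraries and are given side by side. MCF10Ca1a libraries were the shallowest, and with all libraries thinned to the smallest total the counts were again 45 of 45 in both comparisons with MCF10Ca1a, with medians of -1.92 and -2.35.

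**Figure D2:**
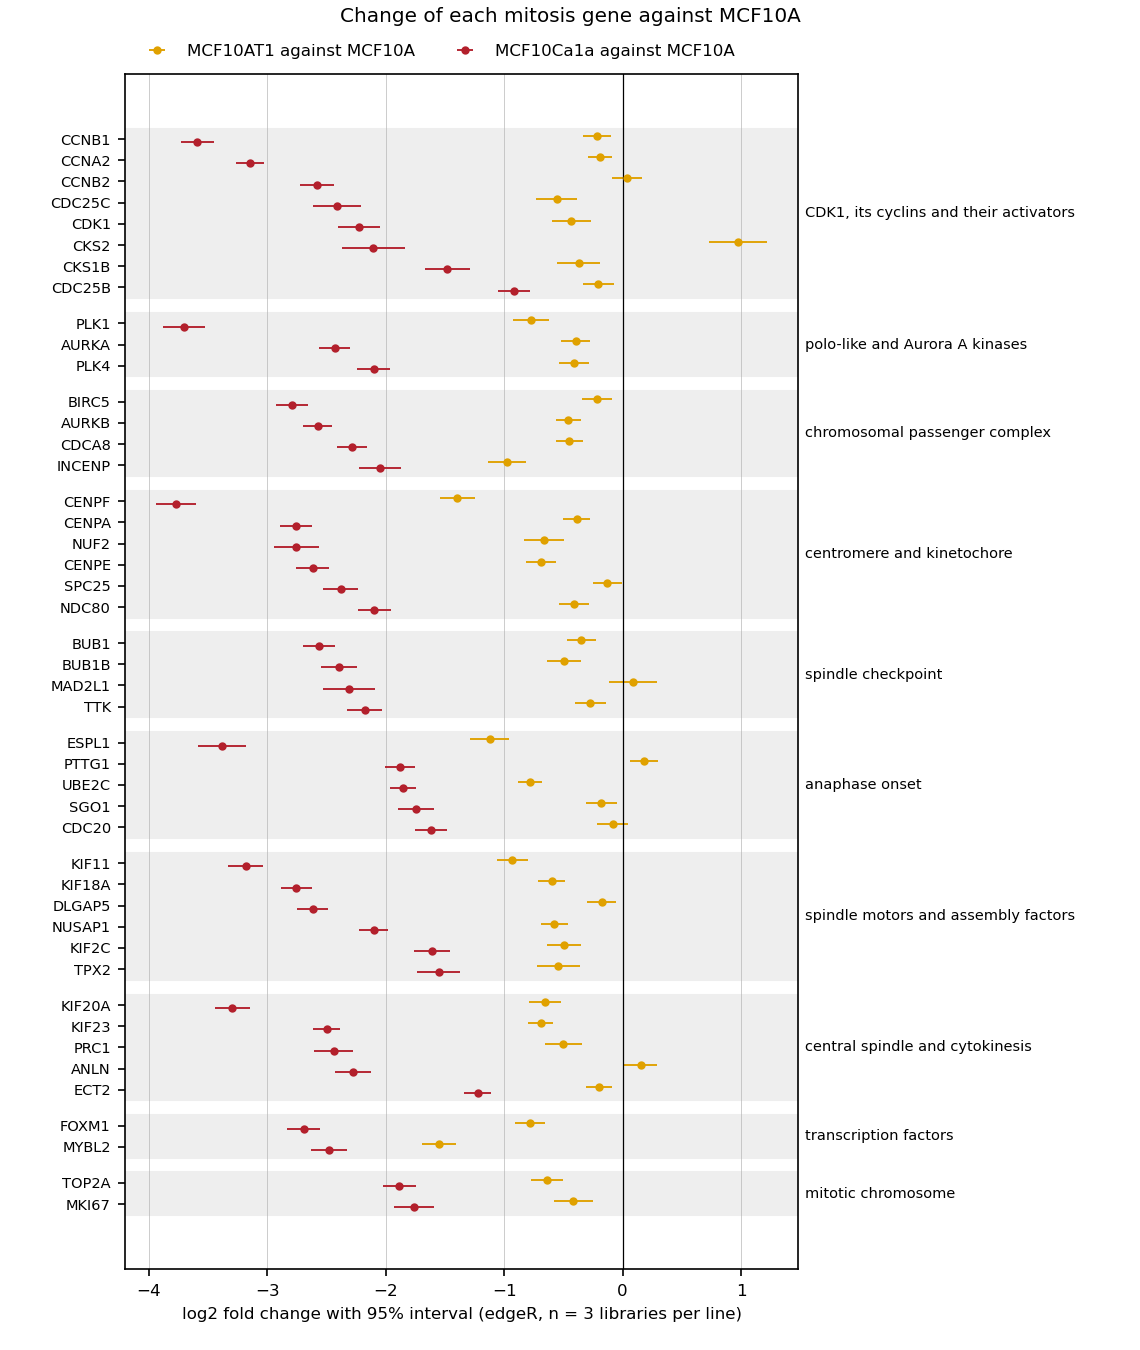
Fitted log2 fold change of each mitosis gene against MCF10A with its 95% interval (edgeR, 3 libraries per line), for MCF10AT1 and MCF10Ca1a. All 45 MCF10Ca1a values lie below 0, from -3.77 to -0.92, while MCF10AT1 values spread from -1.55 (MYBL2) to 0.97 (CKS2).

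CDK1 with its cyclins and activators drives entry into mitosis, and all 8 genes of this group fell in MCF10Ca1a against MCF10A, with a median log2 change of -2.32. In MCF10AT1 6 fell, CKS2 rose and CCNB2 did not pass. CCNB1 encodes cyclin B1, the partner that activates CDK1 at mitotic entry, and it lies on chromosome 5 (chr5:69167010-69178245, GRCh38). Its level was 433, 466 and 488 CPM in the MCF10A libraries, 403, 407 and 383 CPM in MCF10AT1 and 37.8, 38.4 and 39.0 CPM in MCF10Ca1a. The lines were separate, with a small gap between the first pair and a wide gap to MCF10Ca1a. CCNB1 fell by 0.22 ± 0.056 (log2 ± SE, edgeR adjusted p = 0.00427) at the first step and by 3.59 ± 0.064 over the series (12.0-fold lower, edgeR adjusted p = 1.02e-14). Its relative cyclin A2 (CCNA2), which acts in S phase and at mitotic entry, had the same shape, with log2 changes of -0.19 and -3.15. CCNB2, cyclin B2, stood at 133, 146 and 157 CPM in MCF10A and 150.2, 152 and 146 CPM in MCF10AT1, ranges that overlapped, and at 23.5, 24.4 and 24.9 CPM in MCF10Ca1a. Its first-step difference was 0.039 (95% interval -0.09 to 0.17, edgeR adjusted p = 0.601), and it then fell by 2.62 ± 0.067 (edgeR adjusted p = 5.18e-13).

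CDK1, the kinase itself, fell by 0.43 at the first step and by 2.23 over the series on the log2 scale. Its activating phosphatases differed in size: CDC25C fell by 2.41 over the series and CDC25B by 0.92. CDC25B, on chromosome 20 (chr20:3786772-3806121), had the smallest fall of the 45 genes. CDC25B was read at 298, 265 and 256 CPM in MCF10A, 242, 232 and 236 CPM in MCF10AT1 and 141, 141 and 151 CPM in MCF10Ca1a. The order of the lines was the same as for CCNB1, but the highest MCF10Ca1a library stood at 151 CPM against a lowest MCF10AT1 library of 232. The CDC25B falls were 0.20 ± 0.062 (edgeR adjusted p = 0.0107) and 0.92 ± 0.063 (1.89-fold lower, edgeR adjusted p = 6.87e-09).

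CKS2 encodes a small subunit that binds CDK1 and helps it to engage substrates, and it rose at the first step, where 38 of the 45 genes fell. It measured 147, 192 and 225 CPM in MCF10A, 344, 361 and 402 CPM in MCF10AT1 and 43.0, 44.7 and 43.4 CPM in MCF10Ca1a. MCF10AT1 was the highest line in every library, although the MCF10A libraries were themselves spread widely. CKS2 rose by 0.97 ± 0.11 (1.96-fold, edgeR adjusted p = 5.87e-06) from MCF10A to MCF10AT1 and fell by 3.08 ± 0.13 (8.45-fold, edgeR adjusted p = 4.16e-11) from there to MCF10Ca1a. Its paralogue CKS1B, which also serves the ubiquitin ligase that destroys p27, fell at both steps, by 0.37 and 1.11. Per length, CKS2 was the highest of the 45 genes in MCF10A at 795 ± 124 TPM and in MCF10AT1 at 1426 ± 87.5 TPM, while CKS1B (235 ± 6.88 TPM) stood above CKS2 (201 ± 4.48 TPM) in MCF10Ca1a.

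The Polo and Aurora A kinases (PLK1, PLK4, AURKA) all fell at both steps. PLK1, which acts in mitotic entry, centrosome maturation and cytokinesis, lies on chromosome 16 (chr16:23677656-23690367) and had 262, 229.7 and 226 CPM in MCF10A, 144, 142 and 133 CPM in MCF10AT1 and 18.2, 16.8 and 20.1 CPM in MCF10Ca1a. Each line kept to its own range. PLK1 fell by 0.78 ± 0.07 at the first step (edgeR adjusted p = 4.27e-07) and by 3.70 ± 0.082 over the series (13.0-fold lower, edgeR adjusted p = 7.31e-14), the second largest fall of the set after CENPF. AURKA, the centrosomal and spindle kinase, was found at 196, 187 and 187 CPM, 150.4, 148 and 135 CPM and 33.3, 36.1 and 36.2 CPM in the same order of lines. AURKA fell by 0.40 ± 0.056 (edgeR adjusted p = 3.32e-05) and by 2.43 ± 0.061 over the series (edgeR adjusted p = 2.52e-13). PLK4, which starts the duplication of centrioles, stood at 63.7, 66.4 and 68.2 CPM, 50.5, 50.6 and 48.1 CPM and 15.8, 16.5 and 13.9 CPM, again without overlap. Its falls were 0.41 ± 0.057 (edgeR adjusted p = 2.95e-05) and 2.10 ± 0.064 (edgeR adjusted p = 1.56e-12).

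The chromosomal passenger complex corrects wrong microtubule attachments through the kinase Aurora B, and its 4 genes (AURKB, BIRC5, INCENP and CDCA8) fell together, with medians of -0.45 in MCF10AT1 and -2.43 in MCF10Ca1a against MCF10A. BIRC5, survivin, the subunit that brings the complex to centromeres, had the largest fall of the group over the series. BIRC5 stood at 194, 208 and 224 CPM in MCF10A, 177, 185 and 177 CPM in MCF10AT1 and 30.0, 29.8 and 30.6 CPM in MCF10Ca1a, so nearly all of its fall came at the second step. The BIRC5 falls were 0.22 ± 0.057 (edgeR adjusted p = 0.00458) at the first step and 2.58 ± 0.063 (edgeR adjusted p = 3.57e-13) at the second. INCENP, the scaffold that holds the complex together, measured 109.9, 88.8 and 86.8 CPM, 49.0, 47.2 and 49.0 CPM and 23.2, 22.5 and 23.2 CPM. Here the falls of 0.98 ± 0.076 and 1.07 ± 0.082 at the 2 steps were of like size (edgeR adjusted p = 9.01e-08 and 2.67e-08). AURKB itself fell by 2.57 and CDCA8, borealin, by 2.28 over the series.

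Of the 6 centromere and kinetochore genes, all fell over the series (median -2.69) and 5 fell in MCF10AT1, SPC25 being the exception. CENPF, a large protein of the outer kinetochore that accumulates in G2, lies on chromosome 1 (chr1:214603195-214664588). CENPF had 473, 428 and 396 CPM in MCF10A, 160.2, 157 and 177 CPM in MCF10AT1 and 32.3, 30.9 and 32.0 CPM in MCF10Ca1a. It dropped in large steps at both transitions, and no library of 1 line reached the range of another. CENPF fell by 1.39 ± 0.07 (edgeR adjusted p = 1.02e-09), then by 2.37 ± 0.075 (edgeR adjusted p = 3.62e-12), and by 3.77 ± 0.079 in all (13.6-fold lower, edgeR adjusted p = 4.68e-14). NDC80, the subunit that grips microtubules, gave 68.9, 71.7 and 67.7 CPM, 54.9, 53.6 and 48.3 CPM and 15.6, 17.2 and 15.9 CPM. It fell by 0.41 ± 0.057 at the first step (edgeR adjusted p = 2.98e-05) and by 2.10 ± 0.064 over the series (edgeR adjusted p = 1.54e-12), the latter being the smallest fall of the group over the series. NUF2, its partner in the same complex, fell by 2.76. SPC25, the third NDC80 complex gene of the set, stood at 38.3, 41.5 and 43.7 CPM in MCF10A and 38.5, 38.2 and 36.2 CPM in MCF10AT1, ranges that overlapped, and at 7.99, 7.43 and 8.29 CPM in MCF10Ca1a. The first-step difference of SPC25 was -0.13 (95% interval -0.25 to -0.0052, edgeR adjusted p = 0.0662), and its fall over the series was 2.38 ± 0.069 (edgeR adjusted p = 9.32e-13). CENPA, the histone that marks centromeres, and CENPE, the kinetochore motor, fell by 2.76 and 2.62.

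The spindle checkpoint genes BUB1, BUB1B, TTK and MAD2L1 lay close together over the series, with falls from 2.18 (TTK) to 2.56 (BUB1). BUB1, a kinase that recruits checkpoint proteins to kinetochores, was read at 193, 195 and 189 CPM in MCF10A, 159, 157 and 137 CPM in MCF10AT1 and 32.1, 32.3 and 33.3 CPM in MCF10Ca1a. The ranges were separate, and the drop at the second step was the larger. BUB1 fell by 0.35 ± 0.058 (edgeR adjusted p = 0.000138) and by 2.56 ± 0.064 over the series (edgeR adjusted p = 2.2e-13). TTK, also called MPS1, the kinase that starts checkpoint signalling, stood at 121, 130.2 and 138 CPM, 107, 114 and 102 CPM and 27.2, 30.4 and 28.7 CPM. TTK fell by 0.27 ± 0.062 (edgeR adjusted p = 0.00183) and by 2.18 ± 0.068 (edgeR adjusted p = 1.9e-12). MAD2L1 encodes MAD2, which binds and holds back CDC20, and its MCF10A libraries (177, 216 and 248 CPM) spread around those of MCF10AT1 (211, 228 and 242 CPM), with MCF10Ca1a at 43.6, 43.4 and 42.6 CPM. The MAD2L1 difference at the first step was 0.089 (95% interval -0.11 to 0.29, edgeR adjusted p = 0.433), and it fell by 2.39 ± 0.10 at the second (edgeR adjusted p = 6.24e-11). BUB1B, BUBR1, a part of the inhibitor of the APC/C, fell by 0.50 and 2.39.

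The 5 genes of anaphase onset had a smaller median fall over the series (-1.86) than the set as a whole, and only ESPL1 among them passed 4-fold. ESPL1 is separase, the protease that cuts cohesin, on chromosome 12 (chr12:53268299-53293643). It measured 67.3, 60.9 and 60.3 CPM in MCF10A, 27.4, 26.6 and 32.6 CPM in MCF10AT1 and 6.51, 5.56 and 6.01 CPM in MCF10Ca1a, and per length it was the lowest of the 45 genes in every line (14.0 ± 1.31, 6.21 ± 1.19 and 1.64 ± 0.121 TPM). ESPL1 fell by 1.12 ± 0.076 at the first step (edgeR adjusted p = 2.17e-08) and by 3.38 ± 0.094 over the series (10.4-fold lower, edgeR adjusted p = 5.96e-13). PTTG1 is securin, which holds separase inactive until anaphase, and it stood at 205, 222 and 232 CPM in MCF10A, 249, 248 and 250.2 CPM in MCF10AT1 and 57.6, 60.4 and 61.5 CPM in MCF10Ca1a. Enzyme and inhibitor went opposite ways at the first step: PTTG1 rose by 0.18 ± 0.055 (edgeR adjusted p = 0.0115), and it fell by 2.06 ± 0.059 at the second (edgeR adjusted p = 1.39e-12). That rise ended with offsets for gene length (-0.034, edgeR adjusted p = 0.521) and on the TPM scale (0.052, limma adjusted p = 0.309).

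CDC20, the activator of the APC/C that the checkpoint holds back, lay at 313, 298 and 288 CPM in MCF10A, 290.4, 296 and 263 CPM in MCF10AT1 and 97.0, 93.9 and 102 CPM in MCF10Ca1a. The first pair of lines overlapped, with a difference of -0.083 (95% interval -0.21 to 0.047, edgeR adjusted p = 0.253). CDC20 fell by 1.62 ± 0.063 over the series (edgeR adjusted p = 1.68e-11), the smallest fall of this group. UBE2C, the ubiquitin-conjugating enzyme of the APC/C, fell by 0.78 and 1.07 at the 2 steps, and SGO1, shugoshin, which protects centromeric cohesin, by 0.18 and 1.56. The first-step fall of SGO1 did not pass when MCF10A replicate 3 (-0.12, edgeR adjusted p = 0.0849) or MCF10AT1 replicate 1, 2 or 3 was left out (-0.18, -0.18 and -0.17, edgeR adjusted p = 0.0568, 0.0542 and 0.0607). Nor did it pass with length-scaled counts (-0.068, edgeR adjusted p = 0.461) or scaled counts (-0.069, edgeR adjusted p = 0.481). Pseudogene rows named for UBE2C held 0.728% of its counts in MCF10A, 2.22% in MCF10AT1 and 11.9% in MCF10Ca1a, so reads may be divided among near-identical copies in that gene. Such rows held at most 0.944% of the counts of any other gene of the set.

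Spindle motors and assembly factors fell at both steps in 6 of 6 genes, with medians of -0.56 and -2.36 against MCF10A. KIF11, or Eg5, the motor that pushes spindle poles apart, lies on chromosome 10 (chr10:92593286-92655395) and had 225, 203 and 193 CPM in MCF10A, 109, 113 and 104 CPM in MCF10AT1 and 23.3, 22.9 and 22.3 CPM in MCF10Ca1a. No ranges met. KIF11 fell by 0.93 ± 0.06 (edgeR adjusted p = 1.28e-08) and by 3.18 ± 0.067 over the series (9.08-fold lower, edgeR adjusted p = 5.21e-14). TPX2, which activates Aurora A and nucleates spindle microtubules, was measured at 378, 317 and 284 CPM, 231, 226 and 215 CPM and 112, 109.9 and 112 CPM. It was the member of the group that fell least over the series, by 1.55 ± 0.085 (edgeR adjusted p = 6.61e-10), after 0.54 ± 0.083 at the first step (edgeR adjusted p = 6.57e-05). The microtubule depolymerase KIF2C fell by 1.60, the length-limiting motor KIF18A by 2.75, NUSAP1 by 2.10 and DLGAP5, also called HURP, by 2.62. The first-step fall of DLGAP5 did not pass without MCF10AT1 replicate 3 (-0.13, edgeR adjusted p = 0.0574).

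Among the 5 genes of the central spindle and cytokinesis, KIF20A, which carries the passenger complex to the central spindle, had 304, 292 and 274 CPM in MCF10A, 192, 192 and 169 CPM in MCF10AT1 and 28.9, 29.1 and 30.8 CPM in MCF10Ca1a. Its libraries were separate by line, and it fell by 0.65 ± 0.062 (edgeR adjusted p = 7.43e-07) and 3.29 ± 0.07 (9.80-fold lower, edgeR adjusted p = 5.4e-14). ECT2, the exchange factor that switches on RhoA at the cleavage furrow, fell much less. ECT2 stood at 218, 224 and 229 CPM, 197, 203 and 184 CPM and 94.7, 96.5 and 96.0 CPM, with falls of 0.20 ± 0.052 (edgeR adjusted p = 0.00415) and 1.22 ± 0.053 (2.34-fold lower, edgeR adjusted p = 5.37e-11). Anillin (ANLN), the scaffold of the contractile ring, overlapped between MCF10A (526, 469 and 444 CPM) and MCF10AT1 (546, 545 and 507 CPM) and was far lower in MCF10Ca1a (97.6, 97.9 and 101 CPM). Its first-step difference was 0.15 (95% interval 0.01 to 0.29, edgeR adjusted p = 0.0597), and it fell by 2.43 ± 0.07 at the second step (edgeR adjusted p = 1.45e-12). Without MCF10A replicate 1 the first-step difference of ANLN was 0.22 (edgeR adjusted p = 0.00085) and passed as a rise. KIF23 and PRC1, the motor and the bundler of the central spindle, fell by 2.50 and 2.44 over the series.

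The transcription factors of the programme differed in when they fell. FOXM1, which activates G2 and M phase genes, had 182, 162 and 156 CPM in MCF10A, 99.8, 94.7 and 97.0 CPM in MCF10AT1 and 25.9, 25.4 and 26.3 CPM in MCF10Ca1a. FOXM1 fell by 0.78 ± 0.059 at the first step and by 1.91 ± 0.064 at the second (edgeR adjusted p = 7.04e-08 and 6.31e-12). MYBL2, or B-MYB, which joins the MuvB complex and prepares the same promoters, lies on chromosome 20 (chr20:43667019-43716496) and measured 189, 164 and 157 CPM, 58.9, 56.6 and 58.2 CPM and 29.6, 30.0 and 32.0 CPM. The order of the steps was turned round in MYBL2: it fell by 1.55 ± 0.067 at the first step (2.93-fold, edgeR adjusted p = 2.11e-10) and by 0.92 ± 0.07 at the second (1.90-fold, edgeR adjusted p = 2.53e-08). In the edgeR fit it was the only gene of the 45 whose first-step log2 fall was the larger, 62.7% of its fall over the series, followed by INCENP with 47.6%. On the log2(TPM + 1) scale MYBL2 fell by 1.64 and then by 0.61. There the first-step fall was also the larger in INCENP (1.01, then 0.91) and UBE2C (0.88, then 0.84). With offsets for gene length the first-step fall was also the larger in UBE2C (1.01, then 0.79).

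TOP2A, the topoisomerase that untangles and condenses chromosomes, stood at 711, 656 and 626 CPM in MCF10A, 442, 442 and 399 CPM in MCF10AT1 and 178, 179.9 and 182 CPM in MCF10Ca1a. The falls of TOP2A were 0.64 ± 0.063 (edgeR adjusted p = 1.01e-06) and 1.88 ± 0.065 (3.69-fold lower, edgeR adjusted p = 5.01e-12). MKI67, the gene of the proliferation marker Ki-67, which coats mitotic chromosomes, gave 396, 366 and 351 CPM, 267, 254 and 312 CPM and 112, 104 and 112 CPM. Its libraries were separate by line, and its falls were 0.42 ± 0.076 (edgeR adjusted p = 0.000303) and 1.76 ± 0.079 (3.40-fold lower, edgeR adjusted p = 7.05e-11). Both genes fell less over the series than the median of the set.

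Other genes of the same machinery were read from lists of names that leave out the 45, in the same edgeR test. All 16 other spindle genes fell in MCF10Ca1a against MCF10A, with a median of -2.25, from KIF14, a cytokinesis motor (-3.54), to NUMA1, which also serves the interphase nucleus (-0.32). All 27 other centromere and kinetochore genes fell too, but with a median of -1.52 and a range from SKA3 (-2.91), which couples kinetochores to microtubules, to CENPH (-0.15). The 8 other checkpoint genes all fell, with a smaller median of -0.80, from SPDL1 (-2.42) to MAD1L1 (-0.36). Of the 14 core subunits of the APC/C 8 fell, 5 rose and 1 did not pass, where 41.9% of all genes tested fell and 39% rose, with a median of -0.31, from ANAPC15 (-1.15) to ANAPC16 (1.20). Of 9 genes that restrain CDK1 or the APC/C or act at mitotic exit, 8 fell and 1 rose (median -0.95), the largest fall being that of FBXO5, the APC/C inhibitor EMI1 (-2.23), and the rise that of the phosphatase subunit PPP2R2A (0.51).

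Most of the other regulators read here fell in MCF10Ca1a against MCF10A. Of 19 genes of the DREAM, MuvB and E2F complexes, 15 fell, 3 rose and 1 did not pass, with a median of -0.59. In that comparison 41.9% of all genes tested fell and 39% rose. E2F2 had the largest fall (-2.66) and the MuvB subunit LIN37 the largest rise (1.66). All 36 S-phase and DNA replication genes fell, with a median of -1.31, from UHRF1 (-2.99) to RFC4 (-0.17). In MCF10AT1 against MCF10A, 22 of the 36 fell and 3 rose, with a median of -0.26. The gap between the median log2 CPM of the 45 mitosis genes and that of the 36 S-phase genes was 1.31 to 1.34 in the MCF10A libraries, 1.14 to 1.24 in MCF10AT1 and 0.103 to 0.154 in MCF10Ca1a. The size of that gap depends on gene length and only its change is read here: it narrowed in MCF10Ca1a by more than its spread in any line. Of 8 commonly used reference genes 6 fell and 2 rose over the series (median -0.61), from YWHAZ (-1.16) to SDHA (1.10). Over the series such genes thus did not give a level line against which to read the set. At the first step their median was 0.0064, with a range from -0.66 to 0.23, and 5 of the 8 did not pass.

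The same lists were counted at each step. From MCF10A to MCF10AT1, 15 of the 16 other spindle genes fell and 0 rose, 16 of the 27 other centromere and kinetochore genes fell and 3 rose, and all 8 other checkpoint genes fell. APC/C core subunits had 5 lower and 5 higher of 14 at that step, near the 31.8% and 29.8% of all genes tested, and the inhibitor and exit genes had 5 lower and 2 higher of 9. DREAM, MuvB and E2F genes had 11 lower and 3 higher of 19, and reference genes 2 lower and 1 higher of 8. From MCF10AT1 to MCF10Ca1a the counts were 15 lower and 0 higher for other spindle genes, 25 and 1 for centromere and kinetochore genes, 7 and 0 for checkpoint genes and 34 and 0 for S-phase genes. At that second step APC/C subunits had 8 lower and 3 higher, inhibitor and exit genes 7 and 1, DREAM, MuvB and E2F genes 13 and 4, and reference genes 5 and 3, where 40.3% of all genes tested were lower and 38% higher.

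**Figure D3:**
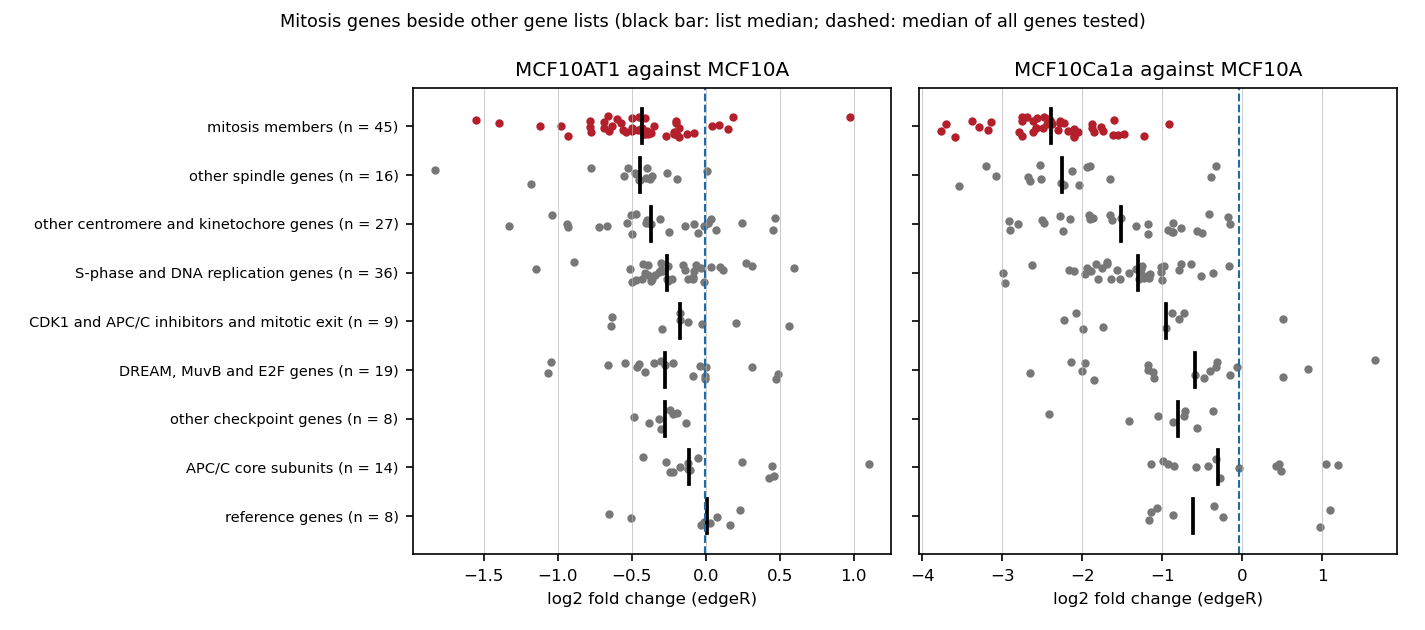
Fitted log2 fold changes (edgeR) of the 45 mitosis genes in red and of other gene lists in grey, 1 point per gene, for MCF10AT1 against MCF10A and MCF10Ca1a against MCF10A; black bars are list medians and the dashed line is the median of all 17910 genes tested. In MCF10Ca1a the mitosis genes (median -2.39) and other spindle genes (median -2.25) lie furthest left, and APC/C core subunits (median -0.31) straddle 0.

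Transcript estimates allowed the make-up of each gene's RNA to be described, with no test. For the 43 genes with more than 1 transcript, the share of TPM taken by the leading transcript had separate ranges between MCF10Ca1a and MCF10A in 22 (51.2%), against 40.7% of 13715 genes. At the single steps the numbers were 17 (39.5%, background 26.8%) for MCF10AT1 against MCF10A and 18 (41.9%, background 38.2%) for MCF10Ca1a against MCF10AT1. Separate ranges with means at least 10 percentage points apart were fewer. Over the series 9 of the 43 genes had them (ANLN, AURKA, FOXM1, ECT2, CDCA8, ESPL1, KIF23, CENPE and MKI67), where the background was 23.8%. The first step had 3 of the 43 (ECT2, CDCA8 and KIF23, background 9.54%) and the second had 3 (ECT2, KIF23 and MKI67, background 20.4%). In each comparison the share of the 43 genes was below the background. In MCF10Ca1a these shares rest on the lowest counts of the 3 lines.

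ECT2, KIF23 and MKI67 differed by at least 10 points at the second step, and they are described for that reason. In ECT2 the transcript ENST00000392692.8 took 45.5%, 51.1% and 47.9% of the gene's TPM in the MCF10A libraries, 34.5%, 36.3% and 35.4% in MCF10AT1 and 23.0%, 25.5% and 18.0% in MCF10Ca1a. The transcript ENST00000232458.9 took 25.7%, 21.0% and 23.5%, then 35.0%, 35.5% and 35.7%, then 45.5%, 47.0% and 47.3%, so the order of the pair was turned round. The first transcript (4158 bases) contains a coding exon of 93 bases (chr3:172755483-172755575, GENCODE 29, GRCh38) that the second (4087 bases) lacks, and the pair also differ in length outside the coding part. In TPM the exon-containing transcript stood at 60.3 ± 2.73 in MCF10A and 13.1 ± 1.64 in MCF10Ca1a, and the other at 29.3 ± 3.59 and 27.7 ± 1.75.

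In KIF23 the leading transcript ENST00000352331.8 had a mean share of 65.9% ± 1.91 (SD, n = 3) in MCF10A, 55.9% ± 0.932 in MCF10AT1 and 41.5% ± 1.89 in MCF10Ca1a, and ENST00000679126.1 had 19.1% ± 0.407, 29.6% ± 1.8 and 42.3% ± 5.97 in the same order. The exons of the second were not analysed here. In MKI67 the long form had the larger share in MCF10Ca1a. ENST00000368654.8, which holds a coding exon of 1080 bases (chr10:128114928-128116007) that ENST00000368653.7 lacks, had 52.6% ± 1.02 in MCF10A, 52.6% ± 1.08 in MCF10AT1 and 76.1% ± 6.81 in MCF10Ca1a. The shorter form had 40.5% ± 4.29, 35.8% ± 2.91 and 17.8% ± 5.28, and its level was 13.3 ± 2.24 TPM in MCF10A and 1.81 ± 0.549 TPM in MCF10Ca1a.

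**Figure D4:**
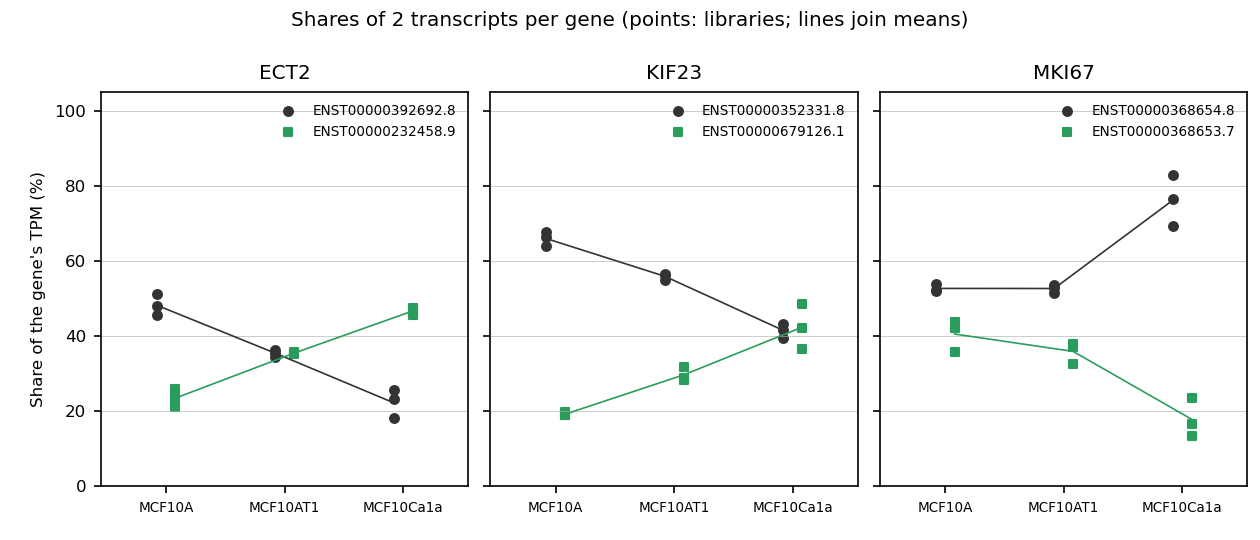
Share of the gene's summed transcript TPM (percent) taken by 2 transcripts each of ECT2, KIF23 and MKI67, with 1 point per library and lines joining the means of the 3 lines. The shares of the pair cross in ECT2 and meet in KIF23, while in MKI67 the long form stands at a mean of 76.1% in MCF10Ca1a.

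Libraries of 1 line differed among themselves in a way that followed gene length, with the strongest correlations in MCF10A. Across the 45 genes the log2 CPM ratio of MCF10A replicate 3 to replicate 1 had a Spearman correlation of -0.753 with relative gene length, and across 16587 genes it was -0.425; genes share both libraries and are not independent. Short genes were higher in replicate 3 (CKS2 at 147, 192 and 225 CPM in replicates 1, 2 and 3) and long genes lower (CENPF at 473, 428 and 396 CPM). The same ratio of MCF10AT1 replicate 2 to replicate 1 had a correlation of -0.557 across the 45 genes and -0.163 across all, and the other pairs within MCF10AT1 and MCF10Ca1a lay between -0.18 and 0.0758 for the 45 genes. The fitted change of the 45 genes from MCF10A to MCF10AT1 had a correlation of -0.545 with length (all 17910 genes: -0.151). From MCF10AT1 to MCF10Ca1a the correlation was 0.203 (all genes: 0.0888), and from MCF10A to MCF10Ca1a it was -0.138 (all genes: 0.00546). With offsets that equalise libraries within 10 bins of gene length, 39 of the 45 genes were lower and 2 higher at the first step (median -0.43), and all 45 were lower in both comparisons with MCF10Ca1a (medians -1.84 and -2.26). CKS2 then rose by 0.77 (edgeR adjusted p = 3.21e-07) and CENPF changed by -1.29 (edgeR adjusted p = 2.42e-11) at the first step. The 2 higher genes there were CKS2 and ANLN (0.21, edgeR adjusted p = 0.00119), while PTTG1 did not pass. CCNB2 (-0.028, edgeR adjusted p = 0.583) and MAD2L1 (-0.063, edgeR adjusted p = 0.411) turned to the negative side without passing, and SPC25 passed as a fall (-0.29, edgeR adjusted p = 6.82e-05). Single MCF10A libraries also decided first-step calls among the 5 genes that did not pass: without replicate 1 SPC25 passed as a fall (-0.18, edgeR adjusted p = 0.00499) and CCNB2 and MAD2L1 stood at -0.023 and -0.029, and without replicate 3 MAD2L1 passed as a rise (0.21, edgeR adjusted p = 0.0294). The part of length in the difference between the lines beyond these values was not tested.

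**Figure D5:**
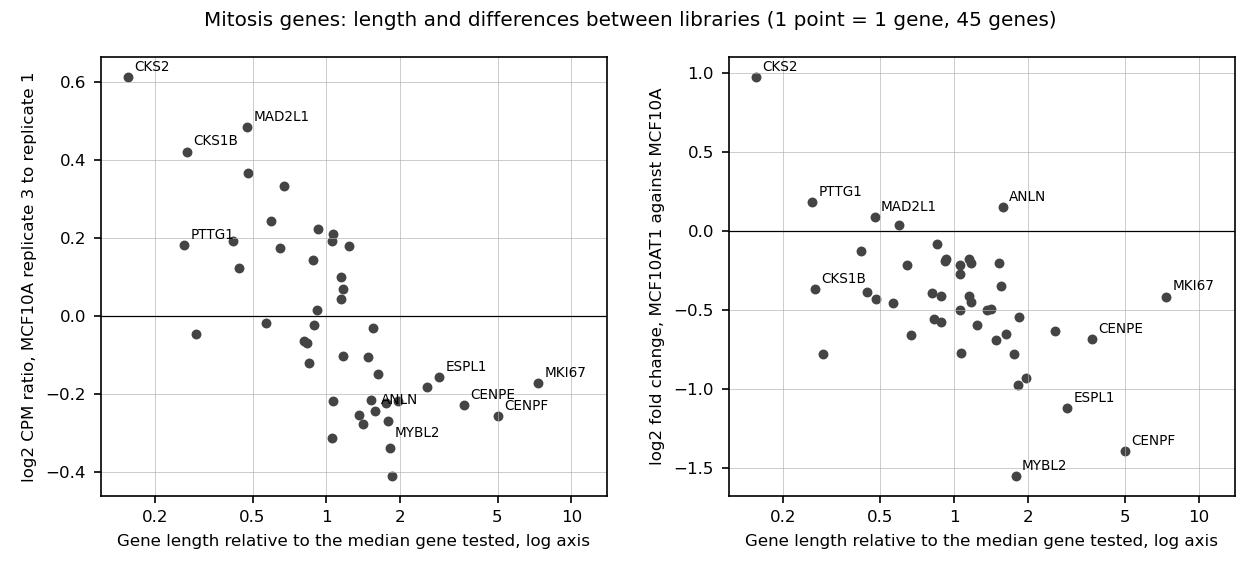
Each of the 45 mitosis genes by its length relative to the median gene tested (log axis) against the log2 CPM ratio of MCF10A replicate 3 to replicate 1 (left) and the fitted log2 change of MCF10AT1 against MCF10A (right). Short genes such as CKS2 lie high and long genes such as CENPF lie low in both panels, with correlations of -0.753 and -0.545.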

How the data were processed

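Salmon and hg38 are named in the submitters' processing notes; the annotation is not given in the sources used here. Per the deposited tables' names and values, the authors provided estimated counts per gene (also as scaled and length-scaled estimated counts), TPM per gene, and estimated counts and TPM per transcript, for 9 libraries of 3 lines. The deposited estimated counts were rounded. Genes were kept with filterByExpr by line (minimum count 10, minimum total 15). All 9 libraries entered 1 fit of edgeR's quasi-likelihood test (edgeR 4.0.16, R 4.3.3) with TMM normalisation and Benjamini-Hochberg adjustment over all 17910 genes at 0.05. CPM uses TMM-scaled totals. Standard errors were obtained by dividing a log2 fold change by the root of its F value.

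The members, the other gene lists and the roles were chosen with earlier results of these data known. Full values are given, per role group, for the largest and the smallest fall in MCF10Ca1a against MCF10A (all genes of groups of 2 or 3) and for genes called higher in any comparison. CCNB2, SPC25, MAD2L1 and ANLN were added after their values were seen, because they did not pass at the first step. Of the other lists, the largest called fall and rise, or the smallest fall, are named. Positions come from GENCODE 29 (GRCh38) and promoters from RefSeq (GRCh38.p14). Alternatives were DESeq2 1.42.0, limma 3.58.1 on log2(TPM + 1) or log2(TPM + 0.1), other scalings and filters, length offsets in 10 bins, thinning, a replicate block and leaving out each library.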

Additional observations from a re-analysis of the deposited data

How the results depend on the processing

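In all 21 settings all 45 genes were lower in both comparisons with MCF10Ca1a. In MCF10AT1 against MCF10A, leaving out 1 library gave 36 to 39 genes lower, 2 to 3 higher and medians of -0.46 to -0.42; the called higher count was 1 with limma on log2(TPM + 1), on log2(TPM + 0.1) and without a filter, and the medians there were -0.57, -0.58 and -0.57. Those settings gave -1.58, -1.69 and -1.58 for MCF10Ca1a against MCF10AT1 and -2.19, -2.30 and -2.19 for MCF10Ca1a against MCF10A; on log2(TPM + 0.1) the median of all genes moved to -0.11, 0.21 and 0.10 in the 3 comparisons. For MCF10Ca1a against MCF10A the median was also -2.47 without a filter, -2.47 with length-scaled counts, -2.46 with scaled counts, -2.26 with length-bin offsets, and -2.45 to -2.39 with 1 library left out.

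Reversals were all at the first step: CCNB2 with length-bin offsets (-0.028), limma on TPM (-0.089 in each setting) and without MCF10A replicate 1 (-0.023), MAD2L1 with length-bin offsets (-0.063) and without MCF10A replicate 1 (-0.029), and PTTG1 with length-bin offsets (-0.034). The cause was not tested. Of 2835 values of the 45 genes under alternatives, 2801 kept their direction and their side of the threshold, 15 lost it (SGO1, PTTG1 and DLGAP5, all at the first step), 11 gained it (ANLN, SPC25 and MAD2L1) and 8 reversed. ANLN also passed as a rise with length-bin offsets (0.21, edgeR adjusted p = 0.00119), without MCF10AT1 replicate 3 (0.19, edgeR adjusted p = 0.0385), without a filter (0.16) and after thinning (0.15). SGO1 did not pass with length-scaled (-0.068) or scaled counts (-0.069) or with limma on TPM (-0.18, -0.19 and -0.18), and DLGAP5 (-0.15) and SGO1 (-0.15) did not with only the 2 lines compared.

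Replicate numbers did not pair the libraries: deviations of same-numbered libraries correlated at -0.0611 to 0.0365, and 0 libraries correlated best with their own number throughout. With a replicate block 38 genes were lower and 2 higher at the first step, with medians of -0.43, -1.93 and -2.39 in the 3 comparisons.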
